A study of Homo sapiens with 36 samples.

Results

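The neurofilament and neuronal intermediate filament genes are 5 genes, NEFL, NEFM, NEFH, INA and PRPH, chosen by their symbols among the 62710 gene rows of the series. The rule uses symbols only, but it was written with earlier results of these data known. All 5 passed the filter on low counts in every comparison. The series measured RNA in H9 human embryonic stem cells, an established line, and in induced neurons (iNeurons) made from them by switching on the transcription factor NGN2 with doxycycline. Cells came in 3 genotype labels: WT, HET (RAI1+/−) and KO (RAI1−/−), where RAI1 encodes a chromatin regulator. Each genotype was taken at days 0, 3 and 7 of the induction with 4 biological replicates, which gives 9 groups and 36 libraries.

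All groups shared the H9 background, the doxycycline-dependent NGN2 transgene and, in the differentiating cultures, Neurobasal-A with GlutaMAX, B27, GDNF, NT3 and CultureOne. The stem cells were grown in mTeSR Plus on Geltrex, with the ROCK inhibitor Y-27632 at plating. The labels do not state how many clones stand behind HET or KO, nor whether replicates were separate inductions, so p-values measure only the spread between these libraries. Forced NGN2 expression acts on every cell that carries the transgene, and cells that do not respond are sampled with the rest.

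Intermediate filaments give the axon its calibre and its resistance to stretch. In mature neurons the neurofilament is a heteropolymer of the light, medium and heavy chains with alpha-internexin in the central nervous system or peripherin in the peripheral nervous system. During development alpha-internexin is known to appear before the heavy chain, which accumulates late as axons are myelinated, and stem and progenitor cells use vimentin, nestin and simple keratins instead.

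The RefSeq promoter of INA, the gene of alpha-internexin, is shown because NGN2 belongs to the basic helix-loop-helix factors that bind E-boxes. INA rose in all 3 genotypes, but so did NEFL, NEFM and PRPH, so its values did not single it out. The windows of NEFL and NEFM were set aside, that of PRPH overlapped an annotated untranslated region, and none was available for NEFH. The window is the 250 bases before the RefSeq start, chr10:103276888-103277137 on the plus strand of GRCh38.p14, written 5′ to 3′, and the capitals mark an E-box of the form CAGATG or its reverse complement CATCTG.
INA promoter: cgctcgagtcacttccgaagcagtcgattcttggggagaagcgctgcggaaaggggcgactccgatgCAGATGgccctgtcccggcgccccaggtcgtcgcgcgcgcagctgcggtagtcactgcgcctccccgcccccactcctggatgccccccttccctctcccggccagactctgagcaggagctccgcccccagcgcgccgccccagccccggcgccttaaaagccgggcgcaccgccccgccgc
The window held 2 matches of the general E-box CANNTG, of which 1 was the CAGATG in capitals, whose first base lies at position -183 from the start. CANNTG was found in 61.8% of 35116 promoter windows of the same length and CAGATG or CATCTG in 12.2% of them. TATAAA, the TATA box core, was not among these letters and was found in 6.8% of windows. A match is a description of the letters and no evidence of binding.

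NEFL encodes the light chain, the core on which the polymer assembles, and NEFM encodes the medium chain, whose long phosphorylated tail projects from the filament. They are neighbours on chromosome 8 in GRCh38 as annotated by GENCODE 29. NEFL (ENSG00000277586) spans 24950955 to 24957110 on the minus strand with 4 exons, and NEFM (ENSG00000104722) spans 24913012 to 24919098 on the plus strand with 3 exons. NEFH (ENSG00000100285), the heavy chain, lies on chromosome 22 from 29480230 to 29491390 on the plus strand with 4 exons. INA (ENSG00000148798), which encodes alpha-internexin, lies on chromosome 10 from 103277163 to 103290351 on the plus strand with 3 exons. PRPH (ENSG00000135406), which encodes peripherin, lies on chromosome 12 from 49293252 to 49298686 on the plus strand with 9 exons.

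Library totals ran from 23.9 to 56.7 M counts, and no pair of libraries was a duplicate. RAI1, the targeted gene, was counted 808 to 4951 times per library and was not lower in HET or KO, so its counts do not check the genotype labels. Markers of the labelled cell type behaved by day: the summed level of 10 neuronal genes was 287 to 558 CPM (counts scaled to a common library total) in WT at day 0 and 5225 to 10390 CPM at day 7, while 6 pluripotency genes fell from 2599 to 3484 CPM to 46.3 to 62.4 CPM. At day 3 the pluripotency sum was 182 to 259 CPM in WT, 231 to 389 in HET and 261 to 370 in KO. At day 7 it was 57.0 to 150 CPM in HET (125 to 150 without replicate 1) and 215 to 281 CPM in KO. Of 2 genes tested at day 7, 1 was called higher and 1 lower in KO, and 1 higher in HET. All genes called were 32.6% and 14.4% there. Those counts were the same without replicate 1 of WT and HET. RMRP, RPPH1, RN7SK, RN7SL1 and RN7SL2, which are small structural RNAs, took 2.84% to 27.5% of the counts and 47.9% to 86.5% of the TPM of a library, so ratios and makeup in TPM, the length-scaled abundance, were taken within a library. The limma tests and the ranks by mean TPM below do set TPM of libraries with different structural RNA shares side by side. At day 7, WT replicate 1 had the lowest neuronal sum and the highest sum of 4 cell division genes (167 CPM, against 22.7 in the lowest WT library), and HET replicate 1 stood apart for PRPH. The main member differences, steps, makeup and ratios that use WT or HET at day 7 are therefore given with all libraries and without these 2. So are the list counts between genotypes and the list sums. Medians over the members, differences of single list genes, positions on the WT rise, ranks, orders and correlations use all libraries unless stated.

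In WT cells 4 of the 5 genes rose between days 0 and 3, and all 5 rose between days 3 and 7. Of all genes tested, 60% changed over the first interval (31.2% upward) and 46.2% over the second (23.3% upward), so a rise by itself was common. The median log2 change of the 5 genes was 1.43 and then 4.07, against 0.07 and 0.01 over all genes. Levels below are plain CPM, and changes are log2 fold changes from edgeR's quasi-likelihood test with standard error (SE) and Benjamini-Hochberg adjusted p. In these bulk samples, fewer cells of a type and less RNA per cell cannot be told apart.

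NEFL stood at 8.33, 19.0, 6.66 and 11.5 CPM in the 4 WT libraries at day 0, at 54.0, 99.1, 126 and 87.2 CPM at day 3, and at 1001, 1551, 1660.3 and 1521 CPM at day 7. The 3 days did not overlap, and replicate 1 was the lowest library at days 3 and 7. The rise was 3.13 (SE 0.35, adjusted p = 2.96e-06) over the first interval and 4.07 (SE 0.36, adjusted p = 5.77e-07) over the second, by edgeR.

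NEFM stood at 5.69, 15.9, 9.85 and 14 CPM at day 0, at 20.5, 30.7, 28.9 and 32.6 CPM at day 3, and at 335, 1001, 842 and 985 CPM at day 7. The days did not overlap, although the gap between days 0 and 3 was narrow. By edgeR its rise was 1.43 (SE 0.35, adjusted p = 0.00258) and then 4.91 (SE 0.39, adjusted p = 2.55e-07), which made its second step 30.1-fold.

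INA stood at 13.2, 21.2, 14.4 and 14.3 CPM at day 0, at 33.1, 47.5, 43.1 and 31.1 CPM at day 3, and at 165, 372, 314 and 403 CPM at day 7, again without overlap between days. Its changes were 1.40 (SE 0.25, edgeR adjusted p = 0.000242) and 3.13 (SE 0.26, adjusted p = 3.97e-07). PRPH was close to the floor at day 0, at 0.356, 0.474, 0.361 and 0.579 CPM. It reached 0.701, 6.06, 8.96 and 8.08 CPM at day 3 and 50.8, 85.1, 151 and 99.9 CPM at day 7. Replicate 1 at day 3 lay just above the day 0 range. The PRPH changes were 3.89 (SE 0.67, edgeR adjusted p = 0.000165) and 4.13 (SE 0.58, adjusted p = 4.05e-05).

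The first steps were smaller on TPM values. The structural RNAs took 51.9% to 62.3% of the TPM in WT at day 0 and 67.4% to 78.9% at day 3, which lowers the TPM of other genes. Their part in these steps was not tested. On limma's log2(TPM + 1) scale those of NEFM (0.38, adjusted p = 0.39) and INA (0.32, adjusted p = 0.391) did not pass, and those of NEFL (1.74) and PRPH (1.01, adjusted p = 0.0134) did. The second steps on that scale were 3.62 for NEFL, 4.22 for NEFM, 2.47 for INA and 3.21 for PRPH. The edgeR second steps without WT replicate 1 at day 7 were 4.22 for NEFL, 5.17 for NEFM, 3.35 for INA and 4.35 for PRPH.

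NEFH behaved unlike the other members. It stood at 2.34, 3.57, 2.53 and 2.99 CPM in WT at day 0, at 2.71, 4.24, 3.02 and 1.53 CPM at day 3, and at 6.05, 8.31, 6.01 and 5.68 CPM at day 7. Days 0 and 3 overlapped (log2 change 0.10, SE 0.25, edgeR adjusted p = 0.75), and day 7 lay above both (1.3, SE 0.25, adjusted p = 0.00073). The second call was lost on TPM values, where the change was 0.27 on the log2(TPM + 1) scale (limma adjusted p = 0.0795), and it was 1.33 by edgeR without WT replicate 1 at day 7. Per transcript length, NEFH stood at a mean of 0.595 TPM in WT at day 7 and NEFL at 139 TPM.

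**Figure D1:**
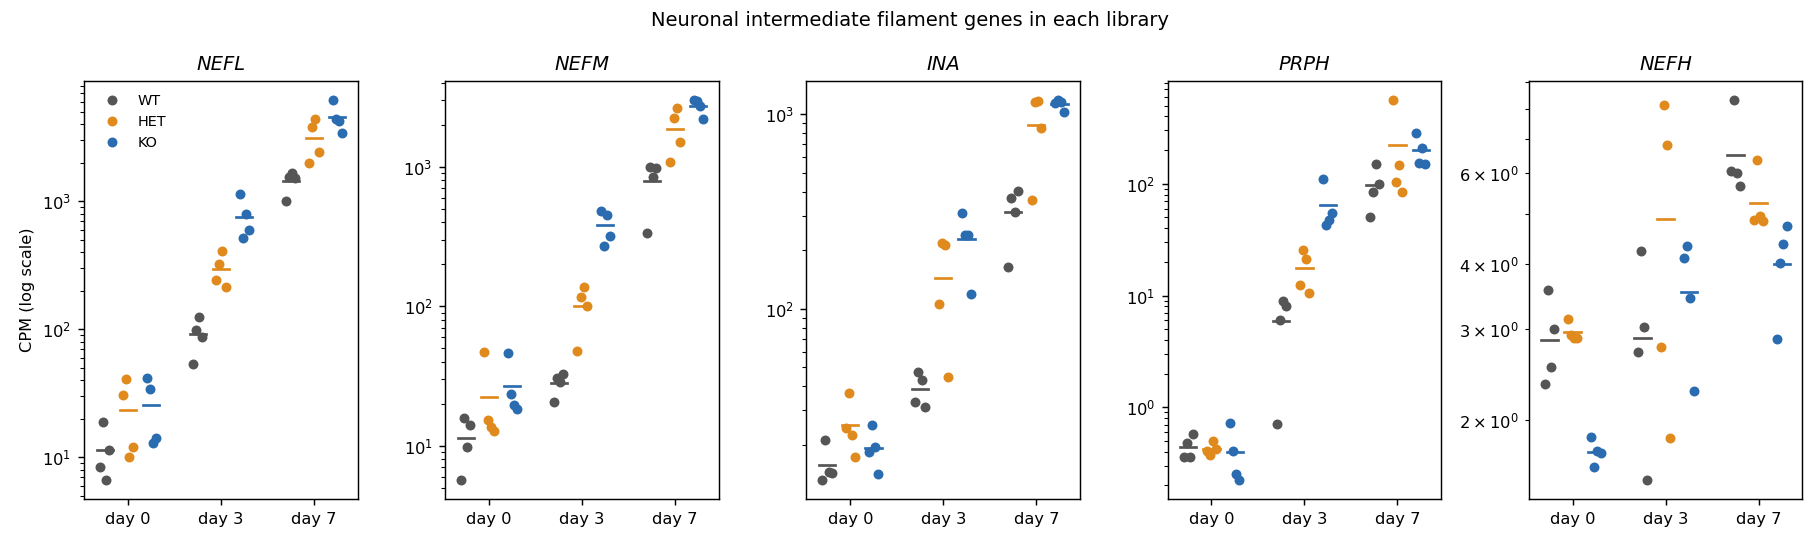
CPM of NEFL, NEFM, INA, PRPH and NEFH on a log axis in each of the 36 libraries, by genotype (WT, HET, KO) and day, with group means as short bars. NEFL, NEFM, INA and PRPH climb with day in every genotype and have their lowest day 7 mean in WT, whereas NEFH stays between 1.53 and 8.31 CPM.

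At day 0, before induction, 1 of the 5 genes differed between KO and WT, at a background of 2.08% of genes called and 0.416% called lower. That gene was NEFH, at 1.85, 1.62, 1.74 and 1.73 CPM in KO. All 4 KO libraries lay below all 4 WT libraries, and the log2 difference was -0.69 (SE 0.16, edgeR adjusted p = 0.0459). This call sat at the threshold: it was lost when any 1 of 7 of the 8 libraries was left out, without the filter (adjusted p = 0.115) and with limma on log2(TPM + 1) (adjusted p = 0.246). Against HET, where NEFH stood at 3.13, 2.91, 2.88 and 2.88 CPM, KO was also below every library, with a difference of -0.75 (SE 0.16, adjusted p = 0.0561) that did not pass at a background of 0.856%.

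The other members were not called at day 0 in any pair of genotypes. NEFL stood at 30.8, 40.8, 9.98 and 12.1 CPM in HET and at 41.8, 34.3, 13.0 and 14.1 CPM in KO, and replicates 1 and 2 of both were above every WT library. NEFM stood at 47.3, 15.4, 13.6 and 12.7 CPM in HET and at 46.2, 23.4, 19.5 and 18.3 CPM in KO. The KO libraries did not overlap WT for NEFM, yet the difference of 1.27 (SE 0.47, edgeR adjusted p = 0.255) did not pass, and that of NEFL was 1.21 (SE 0.52, adjusted p = 0.348).

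INA ranged from 17.2 to 36.7 CPM in HET and from 14.1 to 25.3 CPM in KO at day 0, and the 3 genotypes overlapped. PRPH ranged from 0.224 to 0.722 CPM over all 12 libraries, which is 7 to 25 counts. For HET against WT none of the 5 genes was called, at a background of 1.63%. The largest HET differences were 1.05 for NEFL (SE 0.52, edgeR adjusted p = 0.466) and 0.98 for NEFM (SE 0.47, adjusted p = 0.455). The NEFM value rested on HET replicate 1, at 47.3 CPM, without which it was 0.30 (adjusted p = 0.845).

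At day 3 the genotypes separated. In KO, 4 of the 5 genes were higher than in WT, by between 5.85-fold and 13.5-fold, at a background of 21.6% of genes called and 12.6% called higher. In HET, 3 of the 5 were higher than in WT, by between 3.23-fold and 3.69-fold, at a background of 3.28% called and 2.52% called higher. The median log2 difference of the 5 genes was 3.05 in KO and 1.69 in HET, against -0.05 and 0.02 over all genes. Both comparisons use the same 4 WT libraries.

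NEFL stood at 242, 321, 412 and 215 CPM in HET and at 1139, 515, 789 and 593 CPM in KO at day 3. The 3 genotypes did not overlap, with WT lowest and KO highest. By edgeR the difference from WT was 3.05 in KO (SE 0.33, adjusted p = 3.74e-05) and 1.69 in HET (SE 0.31, adjusted p = 0.00737).

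NEFM stood at 47.6, 116, 138 and 99.9 CPM in HET and at 482, 269, 451 and 317 CPM in KO, and here too each genotype occupied its own range. The KO difference from WT was 3.76 (SE 0.34, edgeR adjusted p = 1.08e-05), the largest of any member at this day, and the HET difference was 1.83 (SE 0.32, adjusted p = 0.00489). Its mean was 379.6 ± 103 CPM in KO against 28.1 ± 5.34 in WT (SD, n = 4 each).

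INA stood at 105, 217, 212 and 44.5 CPM in HET and at 312, 239, 239.6 and 119 CPM in KO. KO lay above WT in every library (2.55, SE 0.40, edgeR adjusted p = 0.000596). HET replicate 4 fell inside the WT range, below WT replicate 2 at 47.5 CPM. The HET difference of 1.89 (SE 0.39, adjusted p = 0.0167) was lost on leaving out any of WT replicates 1, 3 and 4 or HET replicates 2 and 3, with adjusted p between 0.0514 and 0.0687.

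PRPH stood at 12.4, 25.6, 21.3 and 10.6 CPM in HET and at 111, 43.2, 47.4 and 54.9 CPM in KO. The genotypes did not overlap; KO replicate 1 was the highest library. The difference from WT was 3.39 in KO (SE 0.60, edgeR adjusted p = 0.00133) and 1.51 in HET (SE 0.56, adjusted p = 0.206), so the HET difference did not pass in spite of the separate ranges.

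NEFH ranged from 1.85 to 8.12 CPM in HET and from 2.28 to 4.34 CPM in KO at day 3, across the WT range. Its differences from WT were 0.31 in KO (SE 0.41, edgeR adjusted p = 0.614) and 0.77 in HET (SE 0.41, adjusted p = 0.433). The heavy chain therefore did not pass the test at the day when the other members differed most.

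The 2 mutant genotypes also differed from each other at day 3. Against HET, KO was higher for 2 of the 5 genes, at a background of 4.35% of genes called and 2.77% called higher: NEFL by 1.35 (SE 0.31, edgeR adjusted p = 0.0258) and NEFM by 1.93 (SE 0.32, adjusted p = 0.00449). The NEFL call was lost without HET replicate 1 or 2 or KO replicate 1 or 3 (adjusted p 0.0603 to 0.0969). PRPH did not overlap between HET and KO either, but its difference of 1.88 (SE 0.56) had an adjusted p of 0.0796 in edgeR and passed in DESeq2 (1.90, adjusted p = 0.00924). INA differed by 0.66 (SE 0.38, adjusted p = 0.391) with overlapping ranges.

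On limma's log2(TPM + 1) scale the HET and KO-against-HET calls at day 3 were all lost (0 of 5 in each), although each of those called genes kept its direction. That fit called 0.181% of all genes in each of the 2 comparisons, against 3.28% and 4.35% by edgeR. The 4 calls of KO against WT at day 3 held in every fit that left out 1 library. The neuronal marker list differed between the groups in the same direction. Its sum was 1244 to 1695 CPM in WT, 1795 to 4452 CPM in HET and 4251 to 8656 CPM in KO, and 9 of its 10 genes were called higher in KO and 3 in HET. The sum of the 4 cell division genes was 964 to 2055 CPM in WT, 1137 to 1813 CPM in HET and 395 to 1082 CPM in KO. The sum of 7 peripheral neuron genes was 10.6 to 12.2 CPM in WT, 13.1 to 46.0 CPM in HET and 93.0 to 232 CPM in KO. Of these 7, 5 were called higher in KO (median log2 difference 2.03), led by POU4F1, a sensory neuron factor (4.49), and SNCG, gamma-synuclein (3.92), and none in HET. The background called higher was 12.6% in KO and 2.52% in HET. The part of these lists in the member differences was not tested.

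**Figure D2:**
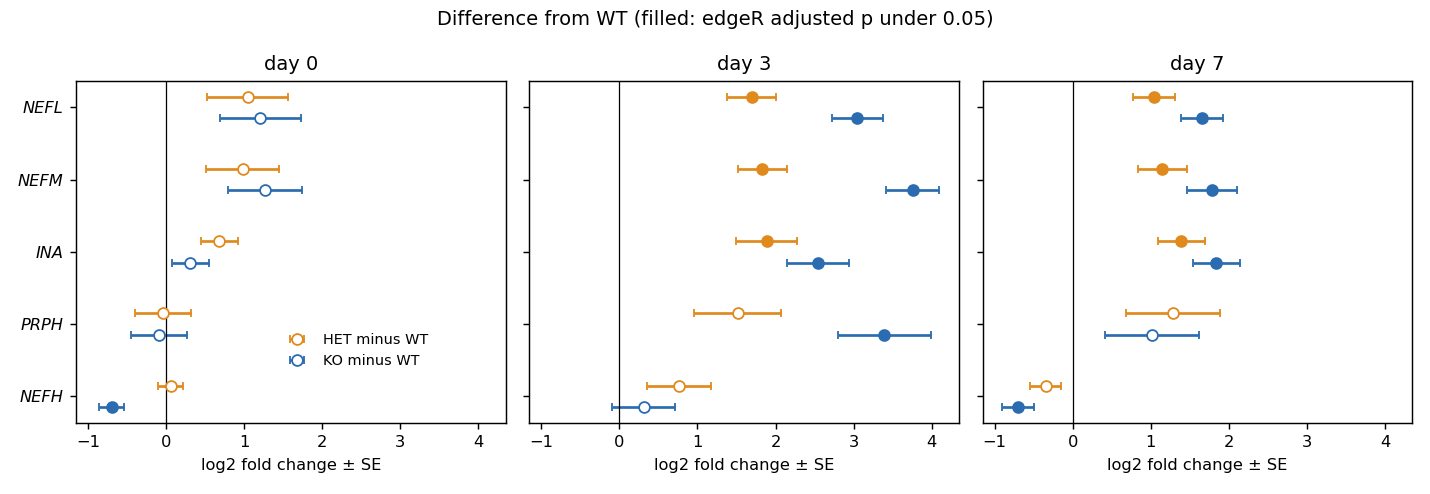
Log2 difference from WT of each of the 5 genes in HET and in KO at days 0, 3 and 7, with error bars of 1 SE from edgeR's fit and filled points for adjusted p under 0.05. NEFL, NEFM, INA and PRPH lie between 2.55 and 3.76 in KO at day 3, and NEFH lies below 0 in KO at days 0 and 7.

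On a log scale, KO cells at day 3 had covered a large part of the distance that WT cells covered between days 3 and 7. On log2(CPM + 1) group means, KO at day 3 stood at 76.0% of the WT rise for NEFL, 79.1% for NEFM, 84.1% for INA and 85.2% for PRPH, and HET stood at 42.8%, 36.8%, 56.2% and 40.2%. NEFH stood at 25.4% in KO and 49.3% in HET, on a WT rise of only a few CPM. These positions are descriptions of the group means, with no test. They include WT replicate 1 at day 7, the lowest WT library of that day for NEFL, NEFM, INA and PRPH, which shortens the WT rise. On plain CPM the part covered was smaller. Mean NEFL was 91.5 CPM in WT at day 3, 759 in KO at day 3 and 1433 in WT at day 7, and mean NEFM was 28.1, 380 and 791 CPM.

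The change with time was compared between genotypes directly, over all 36 libraries. Between days 0 and 3 the rise was steeper in KO than in WT for 4 of the 5 genes, at a background of 8.55% of genes called and 5.37% called higher. By edgeR the extra rise was 1.88 for NEFL (SE 0.56, adjusted p = 0.032), 2.53 for NEFM (SE 0.56, adjusted p = 0.004), 2.28 for INA (SE 0.48, adjusted p = 0.00235) and 3.51 for PRPH (SE 0.99, adjusted p = 0.023). The extra rise of NEFH was 1.05 (SE 0.41, adjusted p = 0.112).

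The calls for NEFM and INA held in every fit that left out 1 library. On limma's log2(TPM + 1) scale NEFL (2.60, adjusted p = 0.0832), NEFM (2.98, adjusted p = 0.0526) and INA (2.58, adjusted p = 0.188) did not pass, and PRPH did. The call for NEFL was lost in 8 such fits: without WT replicate 2 or 4 at day 0, KO replicate 3 or 4 at day 0, WT replicate 1 or 4 at day 3, or KO replicate 1 or 3 at day 3 (adjusted p 0.0512 to 0.116). That for PRPH was lost without WT or KO replicate 4 at day 0 or KO replicate 1 at day 3 (adjusted p 0.0504 to 0.0581).

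Between days 3 and 7 the KO rise was smaller than the WT rise for 2 of the 5 genes, at a background of 18.5% of genes called and 10.9% called lower. The day 3 libraries of KO and WT enter both intervals with opposite sign, so the results of the intervals are not independent. By edgeR the difference of the rises was -1.99 for NEFM (SE 0.56, adjusted p = 0.0101) and -2.40 for PRPH (SE 0.76, adjusted p = 0.0245). NEFL (-1.40, SE 0.56, adjusted p = 0.0764), NEFH (-1.03, SE 0.41, adjusted p = 0.0736) and INA (-0.73, SE 0.47, adjusted p = 0.317) did not pass. The PRPH value was lost without KO replicate 1 at day 3, WT replicate 3 at day 7 or KO replicate 2 at day 7 (adjusted p 0.0508 to 0.0751). On limma's log2(TPM + 1) scale neither NEFM (-1.50, adjusted p = 0.464) nor PRPH (-1.76, adjusted p = 0.139) passed, at 3.8% of all genes called. Without WT replicate 1 and HET replicate 1 at day 7 the edgeR values were -2.24 for NEFM (adjusted p = 0.00272), -2.61 for PRPH (adjusted p = 0.00194) and -1.54 for NEFL (adjusted p = 0.0559), at a background of 20.2%. For HET against WT no member was called in either interval, at backgrounds of 0.271% and 4.74%. The PRPH difference of the second interval moved from -0.22 to -1.69 (adjusted p = 0.0959) without those 2 libraries, and again no member was called, at a background of 8.13%.

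Within KO, all 5 genes rose from day 0 to day 3, at a background of 59.3% of genes called and 29.7% called higher. PRPH rose by 7.39 (SE 0.44, edgeR adjusted p = 1.12e-08), NEFL by 5, NEFM by 3.95, INA by 3.67 and NEFH by 1.14 (SE 0.22, adjusted p = 0.000554). All but NEFH rose again to day 7, by 2.71 (NEFL), 2.96 (NEFM), 2.45 (INA) and 1.78 (PRPH), at a background of 47.8% called and 24.3% called higher. The second step of NEFH was 0.31 (SE 0.21, adjusted p = 0.258). The first NEFH step was 0.27 on limma's log2(TPM + 1) scale (adjusted p = 0.197) and did not pass there.

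Within HET, the 4 genes other than NEFH rose in both intervals, at backgrounds of 48.3% and 41.2% called, and 24.4% and 20.8% called higher. The steps were 3.78 and 3.45 for NEFL, 2.29 and 4.24 for NEFM, 2.61 and 2.66 for INA, and 5.44 and 3.92 for PRPH. Without HET replicate 1 at day 7, at 561 CPM of PRPH, the second PRPH step was 2.67 (edgeR adjusted p = 8.94e-06), and those of NEFL, NEFM and INA were 3.54, 4.37 and 2.87. Without HET replicate 1 at day 0, at 47.3 CPM of NEFM, the first NEFM step was 2.98 (adjusted p = 6.25e-05). On limma's log2(TPM + 1) scale the first steps of NEFM (1.67, adjusted p = 0.0753) and INA (1.55, adjusted p = 0.142) did not pass, and that of PRPH was 2.53. NEFH changed by 0.81 (SE 0.37, edgeR adjusted p = 0.0874) and 0.21 (SE 0.36, adjusted p = 0.681), which did not pass.

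At day 7 KO was higher than WT for 3 of the 5 genes and lower for 1, at a background of 32.6% of genes called, 17% higher and 15.6% lower. HET was higher than WT for 3 of the 5, at a background of 14.4% called and 8.31% higher. The median log2 difference of the 5 genes was 1.66 in KO and 1.15 in HET, against -0.04 and 0.00 over all genes.

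NEFL stood at 1985, 3807, 4372 and 2412 CPM in HET and at 6172, 4402, 4243 and 3393 CPM in KO at day 7. Every mutant library lay above every WT library, and HET and KO overlapped. By edgeR the difference from WT was 1.66 in KO (SE 0.27, adjusted p = 0.0007) and 1.04 in HET (SE 0.27, adjusted p = 0.0197).

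NEFM stood at 1078, 2242, 2626 and 1499 CPM in HET and at 3012, 2941, 2741 and 2207 CPM in KO, above every WT library in both genotypes. The lowest HET library, at 1078 CPM, was near the highest WT library, at 1001 CPM. The difference from WT was 1.78 in KO (SE 0.32, edgeR adjusted p = 0.00123) and 1.15 in HET (SE 0.31, adjusted p = 0.0273).

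INA stood at 363, 1149.6, 1171 and 851 CPM in HET and at 1138, 1184, 1161 and 1023 CPM in KO. The 4 KO libraries lay close together, and HET replicate 1 fell inside the WT range. The difference was 1.84 in KO (SE 0.30, edgeR adjusted p = 0.000769) and 1.39 in HET (SE 0.30, adjusted p = 0.00882), and the HET value moved to 2.25 on limma's log2(TPM + 1) scale (adjusted p = 0.0665).

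NEFH went the other way in KO, at 2.87, 4.02, 4.38 and 4.75 CPM against 5.68 to 8.31 CPM in WT. All KO libraries lay below all WT libraries and below all HET libraries, which stood at 4.87, 6.36, 4.96 and 4.85 CPM. The KO difference from WT was -0.70 (SE 0.20, edgeR adjusted p = 0.0175), and it was lost without WT replicate 2 (adjusted p = 0.0524), without the filter (adjusted p = 0.0595) and with limma on log2(TPM + 1) (-0.07, adjusted p = 0.90). HET differed from WT by -0.35 (SE 0.20, adjusted p = 0.27), and KO from HET by -0.35 (SE 0.20, adjusted p = 0.465).

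PRPH stood at 561, 104, 147 and 84.6 CPM in HET and at 285, 154, 210.1 and 150.0 CPM in KO. HET replicate 1 was far above every other library, and the other 3 HET libraries lay within the WT range. The difference from WT was 1.01 in KO (SE 0.60, edgeR adjusted p = 0.214) and 1.28 in HET (SE 0.61, adjusted p = 0.176), and neither passed. With the structural RNA covariate the values were 1.74 in KO (adjusted p = 0.0159) and 1.56 in HET (adjusted p = 0.0421), and both passed.

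Without WT replicate 1 and HET replicate 1 at day 7, PRPH differed from WT by 0.81 in KO (edgeR adjusted p = 0.0434) and by -0.16 in HET (adjusted p = 0.721). On counts, the HET estimate of PRPH thus rested on 1 library. The same fit left NEFL at 1.53 (adjusted p = 0.000453), NEFM at 1.54 (adjusted p = 8.85e-05), INA at 1.64 (adjusted p = 9.63e-06) and NEFH at -0.72 (adjusted p = 0.0122) in KO. In HET it left NEFL at 1.02 (adjusted p = 0.00856), NEFM at 1.04 (adjusted p = 0.0021) and INA at 1.41 (adjusted p = 6.57e-05). It called 5 of 5 members in KO and 3 of 5 in HET, while the share of all genes called rose to 41.1% and 34%. In TPM, PRPH stood at 98.0, 91.8, 104 and 30.0 in HET at day 7, against 11.1 to 33.4 in WT. Limma with all libraries called that HET difference on log2(TPM + 0.1) (1.68, adjusted p = 0.035) but not on log2(TPM + 1). The structural RNA share of TPM ran from 47.9% to 86.5% over these HET libraries.

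HET replicate 1 differed in other genes of peripheral neurons as well, in both directions. RET, a receptor subunit for GDNF, was at 18.7 CPM there and at 201 to 270 CPM in the other HET libraries, and ISL1, a sensory and motor neuron factor, was at 1.90 CPM against 5.12 to 18.4. SNCG was at 261 CPM against 138 to 178. Across groups the sum of 7 peripheral neuron genes was 169 to 384 CPM in WT, 329 to 553 CPM in HET and 534 to 915 CPM in KO at day 7. Without replicate 1 the WT and HET sums were 284 to 384 and 431 to 553 CPM. The list was mixed: 3 of its 7 genes were higher and 1 lower in KO, and 2 were higher and 1 lower in HET, where the median log2 difference was -0.31. The background was 32.6% of genes called in KO and 14.4% in HET. Without WT and HET replicate 1 the list had 3 higher and 1 lower in KO, and 2 higher and 3 lower in HET. The HET median of that fit was again -0.31. With all libraries, RET (3.11 in KO and 3.15 in HET) and POU4F1 (2.94 and 1.31) were higher in both. PRDM12, a sensory neuron regulator, was lower in both (-1.72 and -1.79) at means under 2 CPM. The part of this list in the PRPH values was not tested.

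The HET calls of NEFL and NEFM at day 7 depended on the fit. With the structural RNA share as a covariate they were 0.80 each (edgeR adjusted p = 0.0566 and 0.0746), and leaving out WT replicate 2, HET replicate 2 or HET replicate 3 lost both; NEFL was also lost without WT replicate 1 (adjusted p 0.0501 to 0.0917 over these fits). On limma's log2(TPM + 1) scale NEFL (1.99, adjusted p = 0.061) and NEFM (2.03, adjusted p = 0.0795) did not pass in HET. Cell division genes summed to 22.7 to 167 CPM in WT at day 7, to 9.37 to 15.8 CPM in HET and to 10.3 to 11.8 CPM in KO, and 5 mesenchymal genes to 32.8 to 61.1, 6.32 to 39.3 and 4.68 to 5.64 CPM. Neuronal markers summed to 10740 to 14180 CPM in HET and 11234 to 13971 CPM in KO, above every WT library. Of these 10 genes, 5 were called higher and none lower in KO, and the same numbers in HET. All 4 division genes were called lower in both. Of the 5 mesenchymal genes 3 were tested, and 3 were lower in KO and 1 in HET. The background was 32.6% of genes called in KO (17% higher) and 14.4% in HET (8.31% higher). Without replicate 1 the division sums were 22.7 to 88.3 CPM in WT and 9.37 to 15.5 CPM in HET. The mesenchymal ranges stayed at 32.8 to 61.1 and 6.32 to 39.3 CPM, and the neuronal sums were 8940 to 10390 and 10740 to 14180 CPM. With both replicate 1 libraries left out, 6 neuronal genes were higher and 1 lower in KO, and the same numbers in HET. The 4 division genes stayed lower in both. Mesenchymal genes were 3 lower in KO, and 1 higher and 2 lower in HET. The larger share of all genes called in that fit is given above. The part of these lists in the member differences was not tested. Between KO and HET at day 7 none of the 5 genes was called (0 of 5, at a background of 1.4%), and the differences were 0.61 for NEFL, 0.63 for NEFM and 0.45 for INA, with SE of 0.26, 0.31 and 0.30. Without WT replicate 1 and HET replicate 1 the KO to HET differences were 0.51 for NEFL, 0.50 for NEFM, 0.23 for INA, -0.29 for NEFH and 0.98 for PRPH, and none was called at a background of 2.82%.

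The order of the 9 group means in CPM showed the same stages for the light and medium chains. For NEFL the order from low to high was WT, HET and KO at day 0, then WT, HET and KO at day 3, then WT, HET and KO at day 7. Neighbours overlapped among the day 0 groups, between KO at day 3 and WT at day 7, and between HET and KO at day 7. NEFM followed the same order, with KO at day 0 also overlapping WT at day 3. INA followed it except that KO preceded HET at day 0, and each neighbouring pair overlapped in at least 1 library. On mean TPM, HET stood above KO at day 7 for NEFL (733 against 624), NEFM (915 against 857) and INA (231 against 173). On that scale KO at day 3 stood above WT at day 7 for NEFL (140 against 139) and INA (50.1 against 34.1). WT at day 3 stood below HET at day 0 for NEFM (7.55 against 10.1) and INA (4.99 against 6.20). The structural RNA share differed between these libraries, and its part in these orders was not tested.

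PRPH and NEFH had their own orders on CPM. PRPH ran from KO, HET and WT at day 0, which overlapped, through WT, HET and KO at day 3, which did not, to WT, KO and HET at day 7, which overlapped again and also met KO at day 3. NEFH was lowest in KO at day 0 and highest in WT at day 7. In between came WT at day 0, WT at day 3, HET at day 0, KO at day 3, KO at day 7, HET at day 3 and HET at day 7, each overlapping the next.

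The makeup of the filament transcripts shifted with day. Taking TPM, which is scaled for transcript length, as a share of the summed TPM of the 5 genes within each library, WT cells at day 0 had 44.5% NEFM, 30.0% INA, 18.6% NEFL, 4.62% NEFH and 2.29% PRPH. At day 7 WT had 45.1% ± 6.83 NEFM, 39.0% ± 6.53 NEFL, 9% ± 0.794 INA, 6.72% ± 1.85 PRPH and 0.175% ± 0.070 NEFH (SD, n = 4). Without replicate 1 these were 48.2% NEFM, 35.9% NEFL, 9.07% INA, 6.75% PRPH and 0.142% NEFH (n = 3). The NEFL share grew while the INA share shrank, and NEFH became a trace.

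In WT the NEFM to NEFL ratio of TPM went from 2.47 ± 0.634 at day 0 through 0.760 ± 0.185 at day 3 to 1.2 ± 0.34 at day 7 (SD, n = 4 each). At day 3 it ranged from 0.508 to 0.905 in WT, from 0.459 to 1.09 in HET and from 0.833 to 1.25 in KO. The KO mean was 2.45 at day 0, 1.06 at day 3 and 1.38 at day 7, and the KO range at day 3 met the WT range only at its lower end. INA to NEFL fell from 1.67 ± 0.490 to 0.237 ± 0.050 in WT between days 0 and 7, and ended at 0.297 ± 0.0956 in HET and 0.285 ± 0.0557 in KO. The ratio of PRPH to NEFL in HET at day 7 ran from 0.0727 to 0.543, with replicate 1 highest, and from 0.0727 to 0.102 without it. Without replicate 1 the day 7 NEFM to NEFL ratio was 1.35 ± 0.188 in WT and 1.26 ± 0.0567 in HET, and INA to NEFL was 0.255 ± 0.0421 and 0.341 ± 0.0470 (SD, n = 3 each).

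**Figure D3:**
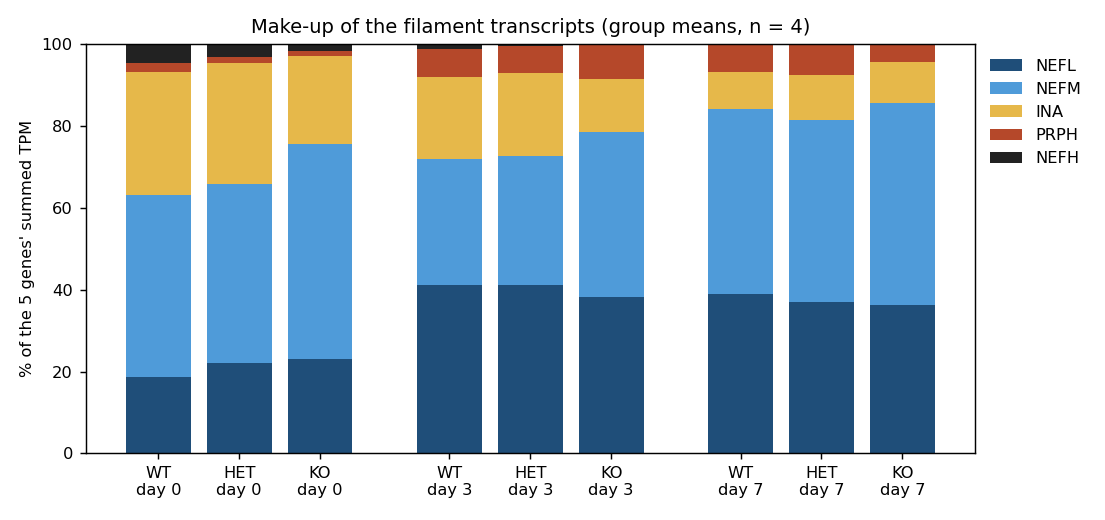
Mean share of each of the 5 genes in their summed TPM, in percent, for the 9 groups, with 4 libraries behind each bar. INA shrinks from 30.0% in WT at day 0 to 9% at day 7, NEFL grows from 18.6% to 39.0%, and NEFH is not visible by day 7.

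**Figure D4:**
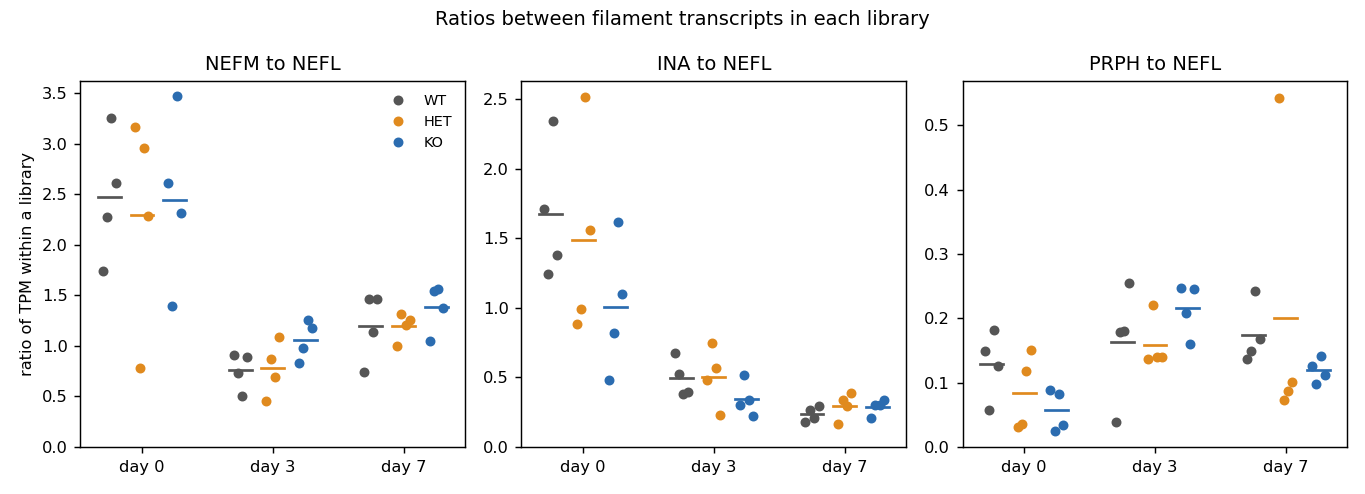
Ratios of TPM within each library (NEFM to NEFL, INA to NEFL, PRPH to NEFL), by genotype and day, 1 point per library with group means as short bars. The mean of NEFM to NEFL is lowest at day 3 in all 3 genotypes, and 1 HET library at day 7 stands apart for PRPH to NEFL at 0.543.

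As a share of all counts, the 5 genes together made up 0.0042% of a WT library at day 0, 0.0167% at day 3 and 0.264% at day 7 (means, n = 4). The day 7 mean was 0.612% ± 0.203 in HET and 0.861% ± 0.157 in KO, where the highest library reached 1.06%. Without replicate 1 the WT mean was 0.300% and the HET mean 0.683% (n = 3 each). Ranked by mean TPM among all 62710 genes at day 7, NEFM was 155th and NEFL 179th in WT, 28th and 37th in HET, and 23rd and 31st in KO. NEFH ranked 13221st in WT, 13808th in HET and 14421st in KO. These ranks use TPM across libraries whose structural RNA share differs, and they were not tested between genotypes.

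Each member's nearest patterns were sought by Pearson's r of log2(CPM + 1) over the 36 libraries, among 12074 other genes with a symbol and a mean of at least 5 CPM. All libraries share the same time course, which alone gives high values, so these are descriptions. NEFL was nearest to TUBA1A, a neuronal alpha-tubulin (r = 0.986), SYT4, a synaptotagmin (0.984), and MAP6, a microtubule stabiliser (0.984). NEFM was nearest to SNAP91, a clathrin adaptor (0.980), PLCL1 (0.979) and CNR1, the cannabinoid receptor (0.979).

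INA was nearest to TMOD2, a neuronal actin-capping tropomodulin (0.990), KIF5C, a kinesin motor (0.988), and SNAP91 (0.986). PRPH was nearest to FBXL16 (0.983), NRN1, a neuritin (0.981), and P2RX3, an ATP receptor of sensory neurons (0.980). NEFH, at a mean of 3.85 CPM, fell under the minimum. Among the members themselves, r was 0.94 to 0.97 between NEFL, NEFM, INA and PRPH and 0.61 to 0.68 between NEFH and the others.

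Among other intermediate filament genes some fell and none rose during induction of WT cells. In WT between days 0 and 3, 0 of 9 rose and 5 fell. The background of all genes called was 60% over this interval (31.2% upward) and 46.2% over the next (23.3% upward). The part of this list that was called did not exceed it in either interval. Of the simple keratins, KRT18 went from 203 ± 18.0 to 0.494 ± 0.534 CPM (log2 change -8.56) and KRT8 from 251 ± 17.6 to 6.85 ± 4.77 CPM (-5.04; SD, n = 4). Between days 3 and 7, 0 rose and 2 fell, among them NES, the progenitor filament nestin, from 940.3 ± 189.8 to 336 ± 92.7 CPM (-1.36, SE 0.23, edgeR adjusted p = 0.000199). Of the lamins, the filaments of the nuclear envelope, LMNB2 (-2.19) and LMNB1 (-1.46) fell over the second interval.

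Between genotypes, 7 of these 9 filament genes passed the filter and were tested at days 3 and 7. In KO at day 3, 0 were higher and 1 was lower, at a background of 21.6% of genes called. That gene was VIM, vimentin, at 227 ± 67.0 CPM in KO and 450.2 ± 78.5 CPM in WT (-0.96, SE 0.28, edgeR adjusted p = 0.0284). None was called in HET at day 3, where the list's median log2 difference was -0.11 and the background was 3.28%. At day 7 KO had 2 higher, SYNM (1.45) and KRT8 (1.28), both under 20 CPM, and 1 lower, DES (-4.53), which was under 1 CPM in both groups. HET had 1 higher, SYNM (1.17, SE 0.32, edgeR adjusted p = 0.0286). The background at day 7 was 32.6% of genes called in KO and 14.4% in HET, so the counts of this list lay near it. With WT replicate 1 and HET replicate 1 left out, 8 were tested, with 3 higher and 2 lower in KO and 1 higher and 1 lower in HET. VIM was now called lower in both (-0.86 and -1.69). The share of all genes called rose in that fit, as given above. No lamin was called in any mutant comparison with WT.

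Of 9 transport motors and cross-linkers, 6 were higher in KO at day 3 and none lower, and 1 was higher in HET. The backgrounds in KO and HET were 21.6% and 3.28% of genes called at day 3, and 32.6% and 14.4% at day 7. KIF5A, the neuronal kinesin that carries neurofilaments, stood at 119 ± 56.7 CPM in KO and 13.2 ± 5.51 CPM in WT (log2 difference 3.13, SE 0.48, edgeR adjusted p = 0.000501). KIF5C differed by 1.75 and DST, a cross-linker of filaments to microtubules, by 1.55 in KO and 1.15 in HET. At day 7, 4 were higher in KO and 3 in HET, led by MYO5A, a myosin motor that binds the light chain (2.11 in KO and 1.56 in HET), KIF5C (1.22 and 1.11) and KLC1, a kinesin light chain (0.81 and 0.70). Without WT replicate 1 and HET replicate 1 at day 7, 5 were higher and 1 lower in KO, and 6 higher and 1 lower in HET. The lower gene was the cross-linker PLEC in both, and all genes called rose in that fit, as given above.

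Of 7 genes for neurofilament kinases, their activators and a phosphatase, 3 were higher in KO and 2 in HET at day 3, and none was lower. The same backgrounds apply, 21.6% and 3.28% of genes called at day 3 and 32.6% and 14.4% at day 7. CDK5R2 and CDK5R1, the activators that confer activity on CDK5 in neurons, differed by 1.6 and 1.24 in KO and by 0.75 and 0.78 in HET. GSK3B differed by 1.19 in KO (SE 0.29, edgeR adjusted p = 0.0109), with overlapping ranges. At day 7, 5 were higher in KO, led by CDK5R1 (1.29), CDK5R2 (1.00) and GSK3B (0.97), and 1 in HET, CDK5R1 (1.02, SE 0.19, adjusted p = 0.00388). When both replicate 1 libraries were left out, 5 were higher and none lower in KO, and 4 were higher and 1 lower in HET. The lower gene was the kinase MAPK3 (-0.35), and the larger share of all genes called in that fit is given above. CDK5R2 was also the only gene of these related lists that differed between KO and HET at day 3 (0.86, SE 0.18, adjusted p = 0.0159).

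The 3 genes of filament turnover and chaperones did not move as 1 group. TRIM2, an E3 ligase for the light chain, was higher in KO at day 0 (0.40, SE 0.08, edgeR adjusted p = 0.0251), at day 3 (1.07, SE 0.21, adjusted p = 0.00271) and at day 7 (1.26, SE 0.24, adjusted p = 0.00203), and in HET at day 7 (1.03). HSPB1, a small heat shock protein that chaperones filament assembly, was lower at day 7. It stood at 52.6 ± 14.4 CPM in WT, 10.7 ± 12.2 CPM in HET and 3.31 ± 0.807 CPM in KO (SD, n = 4), and its log2 difference was -4.00 in KO (SE 0.69, adjusted p = 0.00101) and -2.18 in HET (SE 0.64, adjusted p = 0.0365). Leaving out WT replicate 1 and HET replicate 1 gave -3.79 and -3.44. The neurofilament mRNA binding genes TARDBP and ARHGEF28 were not called in any comparison between genotypes.

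**Figure D5:**
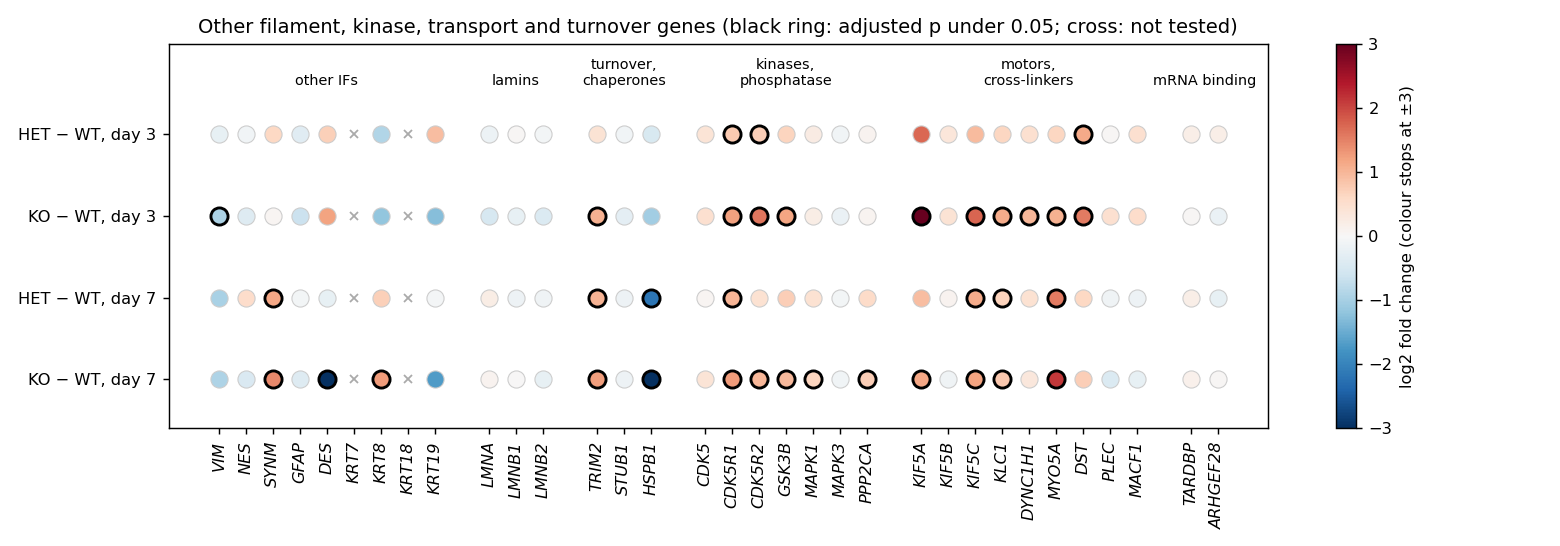
Log2 difference from WT in HET and KO at days 3 and 7 (rows) for each gene of the related lists (columns), as colour from blue (lower) to red (higher) that stops at 3 in either direction, with a black ring for edgeR adjusted p under 0.05 and a cross for genes not tested. Ringed motors and CDK5 activators are red, VIM is blue in KO at day 3, and HSPB1 is deep blue at day 7.

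Reads from overlapping genes limit the lowest levels. NEFL, NEFM, NEFH and PRPH each overlap an annotated antisense gene in GENCODE 29, and whether counting used strand is not given in the sources used here. Counts of the antisense gene at NEFM were 7.17% to 50% of the NEFM count at day 0 and 2.43% to 58% at day 3, and fell to 0.287% to 4.98% at day 7. Those at NEFL were 0.0207% to 0.11% and those at PRPH 0.685% to 2.58% of the member's count at day 7. Low NEFM values, as in WT at days 0 and 3, could therefore hold reads of its antisense partner. NEFL also contains the gene of the microRNA MIR6841.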

How the data were processed

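Ribosomal RNA was depleted from total RNA and both ends of the fragments were read over 151 bp, per the labels' protocols. The submitters' processing notes name cutadapt 4.8, FastQC 0.11.8, MultiQC 1.20, STAR 2.7.8a, RSEM 1.3.3 and GRCh38; the annotation release and the strand setting are not given in the sources used here. The deposited files hold the authors' expected counts (all whole numbers) and TPM values, which are scaled for length and library. The 4 reporter rows were left out. The members and lists were chosen with earlier results of these data known.

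Groups came from the labels, and all libraries carry 1 batch label. Expected counts were tested with edgeR 4.0.16 in R 4.3.3 (TMM, filterByExpr, quasi-likelihood test, Benjamini-Hochberg, threshold 0.05) over all genes: 9 comparisons within days and 6 within genotypes on 12 libraries each, and 4 interactions on 36. CPM is the gene's count scaled by the library's summed gene counts. Composition and ratios used TPM within a library, while the limma tests and ranks used TPM across libraries. The scripts were tested on simulated data.

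Named genes were the 5 members, up to 3 called genes with the smallest adjusted p per related list and comparison, and the 3 nearest patterns per member with a mean of at least 5 CPM. A gene each of the turnover, kinase and peripheral lists is not reported here. Genes of peripheral neurons named beside PRPH in HET replicate 1 were chosen after their values were seen.

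The alternatives tried were library size alone, DESeq2 size factors, the DESeq2 1.42.0 test, limma 3.58.1 on log2(TPM + 1) and log2(TPM + 0.1), no filter, a structural RNA covariate, a block for the replicate number and fits without each library in turn. Leaving out WT and HET replicate 1 at day 7 together was added after seeing the data. Same-numbered libraries were checked for shared deviations: the 4 correlations all passed 0.1 in 3 comparisons with WT, namely KO at day 0 (0.287 to 0.692), KO at day 3 (0.121 to 0.594) and HET at day 3 (0.166 to 0.796). The numbers come from the labels, which name nothing shared behind them. Figures were drawn with matplotlib 3.10.9.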

Additional observations from a re-analysis of the deposited data

Results flagged for a closer look

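In 6 of 45 gene and group combinations, 1 library lay apart from its group by Dixon's test, which chance gives in about 1 of 20. NEFM was at 47.3 CPM in HET replicate 1 at day 0, against 12.7 to 15.4 CPM in the others. NEFH was at 3.13 CPM in the same library against 2.88 to 2.91, at 8.31 CPM in WT replicate 2 at day 7 against 5.68 to 6.05, and at 6.36 CPM in HET replicate 2 at day 7 against 4.85 to 4.96. INA was at 21.2 CPM in WT replicate 2 at day 0, against 13.2 to 14.4. PRPH was at 561 CPM in HET replicate 1 at day 7, against 84.6 to 147 CPM in the other HET libraries.

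The change with time differed between KO and WT in 6 instances by the interaction term of edgeR. The background was 8.55% of genes called for days 0 to 3 and 18.5% for days 3 to 7. Between days 0 and 3 the rise was larger in KO by 1.88 for NEFL, 2.53 for NEFM, 2.28 for INA and 3.51 for PRPH on the log2 scale. Between days 3 and 7 the difference of the rises was -1.99 for NEFM and -2.40 for PRPH. Of the 16 fits that left out 1 library, 8 lost the NEFL call and 3 lost each PRPH call. On limma's log2(TPM + 1) scale only the PRPH call of days 0 to 3 held.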

How the results depend on the processing

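Of the results on single genes, 1562 alternative fits kept their direction and side of the threshold, 80 lost a call, 19 gained one and 44 changed sign. The NEFL, NEFM, INA and PRPH differences between KO and WT at day 3 kept their call when any 1 library was left out (4 called each time). Precision rests on 4 libraries a group and, for PRPH at day 0, on 7 to 25 counts. On log2(TPM + 1), the median of all genes shifted by 0.20 in KO against WT at day 3, by 0.18 at day 7 and by 0.46 in HET against WT at day 7.

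The number of members called moved as follows. The cause was not tested, and the share of all genes called moved as well. That share is not given here for library size alone, DESeq2, the fit without the filter, the covariate and the fits without 1 library. The counts of members in those fits therefore cannot be set against it. For KO against WT at day 0 it was 0 with limma on log2(TPM + 1) and log2(TPM + 0.1), without the filter and with the structural RNA covariate, and 0 to 1 on leaving out 1 library. For KO against HET at day 0 it was 1 with library size alone and 1 with DESeq2. For KO against WT at day 7 it was 5 with the covariate and without replicate 1 of WT and HET and 3 without the filter, for HET against WT at day 7 it was 2 with the covariate and 4 with log2(TPM + 0.1), for KO against HET at day 3 it was 3 with DESeq2 and without the filter, and for the KO interaction from day 3 to 7 it was 3 with the covariate. Both limma scales gave 4 for WT from day 3 to 7 and 4 for KO from day 0 to 3, and log2(TPM + 0.1) gave 3 for HET from day 0 to 3. With limma on log2(TPM + 1) it was 0 for HET against WT at days 3 and 7, 0 for KO against HET at day 3, 2 for WT and 2 for HET from day 0 to 3, 1 for the KO interaction from day 0 to 3 and 0 from day 3 to 7. All genes called in that fit were 0.181%, 1.25%, 0.181%, 63.6%, 23.8%, 1.3% and 3.8% in this order, against 3.28%, 14.4%, 4.35%, 60%, 48.3%, 8.55% and 18.5% in the main test. With log2(TPM + 0.1) it was 0 for HET against WT and for KO against HET at day 3, 2 for WT from day 0 to 3, 2 for the KO interaction from day 0 to 3 and 0 from day 3 to 7, with 0.492%, 0.436%, 63.8%, 1.3% and 4.89% of all genes called. On leaving out 1 library it ranged from 2 to 3 for HET against WT and from 1 to 2 for KO against HET at day 3, from 3 to 4 for KO against WT at day 7, from 4 to 5 for HET from day 0 to 3, from 1 to 3 for HET against WT at day 7, from 2 to 4 and from 1 to 3 for the KO interactions, and from 0 to 1 for the HET interaction from day 3 to 7.

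The replicate block changed no member's call in the 3 comparisons whose numbers pair the samples (1 called for KO against WT at day 0, 4 for KO and 3 for HET at day 3), while all genes called went to 4.7%, 37.7% and 8.79%. Elsewhere the numbers are only shared: the block gave 1 called for HET against WT at day 0 (INA, 0.66, adjusted p = 0.0064 in edgeR), 3 for KO against HET at day 3 (PRPH, 1.97, adjusted p = 0.0408) and 3 for the KO interaction from day 3 to 7 (NEFH, -1.05, adjusted p = 0.0456), with 3.37%, 12.7% and 20.4% of all genes called against 1.63%, 4.35% and 18.5% without it.

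The 44 changes of sign concerned differences that did not pass in the main test. With limma on log2(TPM + 1) and log2(TPM + 0.1), NEFH turned to 0.29 and 0.50 for HET against WT at day 7, to -0.25 and -0.74 for WT from day 0 to 3 and to -0.096 and -0.11 for KO from day 3 to 7, and at 0.1 to -0.062 for HET from day 0 to 3. PRPH at day 0 turned to 0.061 for KO against WT, to 0.029 and 0.088 for HET against WT and to 0.031 for KO against HET. In the HET interaction from day 3 to 7 limma gave 0.45 and 0.32 for INA, 0.14 and 0.025 for NEFM, 0.068 for NEFL and 0.097 for PRPH.

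Leaving out 1 library gave ranges that crossed 0. For PRPH they ran from -0.56 to 0.10 in KO against WT, from -0.13 to 0.11 in HET against WT and from -0.52 to 0.14 in KO against HET at day 0, from -0.56 to 0.97 in KO against HET at day 7, and from -1.48 to 0.16 in the HET interaction from day 3 to 7. For NEFH they ran from -0.026 to 0.19 in HET against WT at day 0, from -0.12 to 0.29 in WT from day 0 to 3, and from -0.050 to 0.51 in HET from day 3 to 7. In KO against HET at day 0 they ran from -0.18 to 0.55 for NEFL and from -0.12 to 0.96 for NEFM. PRPH in KO against HET at day 7 also turned to 0.11 with the replicate block, to 0.18 with the structural RNA covariate and to 0.98 without replicate 1 of WT and HET, a fit in which HET against WT turned to -0.16.

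PRPH in KO against WT at day 7 became called with the structural RNA covariate (1.74, edgeR adjusted p = 0.0159) and with limma (1.61, adjusted p = 0.048).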
